A study of Cricetulus griseus with 24 samples.

Results

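Transforming growth factor beta (TGF-beta) signalling was read in Chinese hamster ovary (CHO) cells from 10 of its genes, chosen by symbol out of the 28037 genes in the table of read counts. No sequence or transcript length was at hand for them, so levels are compared between samples of a gene and not between genes. They are the ligand genes Tgfb1 and Tgfb2, the receptor genes Tgfbr1 and Tgfbr2, the receptor-regulated Smads Smad2 and Smad3, their shared partner Smad4, the inhibitory Smad7, and the Smad-responsive genes Id1 and Id3. Each symbol matched 1 row, and all 10 genes were among the 21358 genes that passed the filter on low counts and were tested. RNA came from 3 lines, each in exponential (EXP) and stationary (STA) phase. A0 is a low-producing antibody clone of the CHO line DG44 and carries 1 plasmid for the antibody heavy chain and 1 for the light chain, each with a selection marker. A1 is the progeny of A0 after amplification with methotrexate (MTX), and CHO-S is a non-producing line used as the negative control. The CHO-S samples were assigned by their cell line label, and their titles read NDST, a name the labels do not explain. A0 and A1 are 1 clone each, so a difference between the 3 lines is a difference between those clones and CHO-S, not between classes of producer.

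The 24 libraries were taken as 20 cultures: 4 of A0, 3 of A1 and 3 of CHO-S in each phase. The labels number 4 A0 cultures, while the study's methods speak of triplicates, and a second library was assumed to belong to the A0 culture of the same number. The 8 libraries of exponential A0 were summed to 4 cultures, because cultures 1 and 2 each had a second library titled RLT and cultures 3 and 4 each had a second library titled Duplicate. The labels do not say that cultures of 1 line were grown independently, so the p-values measure the spread between these samples, which may be partly technical.

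TGF-beta ligands are secreted in a latent form, and once released they bring together the type II receptor Tgfbr2 and the type I receptor Tgfbr1. The active receptor pair phosphorylates Smad2 and Smad3, which join Smad4, enter the nucleus and regulate transcription. Smad7 is induced by the pathway and blocks its receptors. Id1 and Id3 encode proteins that bind basic helix-loop-helix transcription factors and keep them off DNA, and their transcription responds to Smads in many cell types. The pathway is known for arresting growth and for inducing matrix genes in epithelial and mesenchymal cells. RNA levels of these genes do not measure ligand release or Smad phosphorylation.

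Reads on genes ranged from 1038026 to 14652646 per library. The lowest total belonged to CHO-S stationary culture 1, and the other 23 libraries held at least 6532373. Levels are in CPM, read counts scaled to library size with TMM factors, and are given ± SD over cultures. Col4a1, a collagen gene high in CHO-S (3640 ± 91.4 CPM in exponential phase, n = 3), was at 45.2 CPM in A1 exponential culture 1 against 0.341 and 0.305 CPM in the other A1 exponential cultures. That level is 1.24% of the exponential CHO-S mean. Values without this culture and without CHO-S stationary culture 1 are given where they change a call. The 8 markers of blood, endothelial and epithelial cells summed to 5.36 to 8.12 CPM over the exponential cultures of all lines, to 19.4 to 69.3 CPM in stationary A0, 13.8 to 17.8 CPM in stationary A1 and 34.6 to 41.3 CPM in stationary CHO-S. Without Cd68 the sums lay between 1.71 and 7.32 CPM, and from none to 3 of the 8 were at 0 throughout a group. Cd68 itself rose in stationary phase in all 3 lines, to 41.2 ± 24.2 CPM in A0, 9.90 ± 1.88 CPM in A1 and 32.7 ± 5.64 CPM in CHO-S. The part of Cd68 in the results was not tested.

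**Figure D1:**
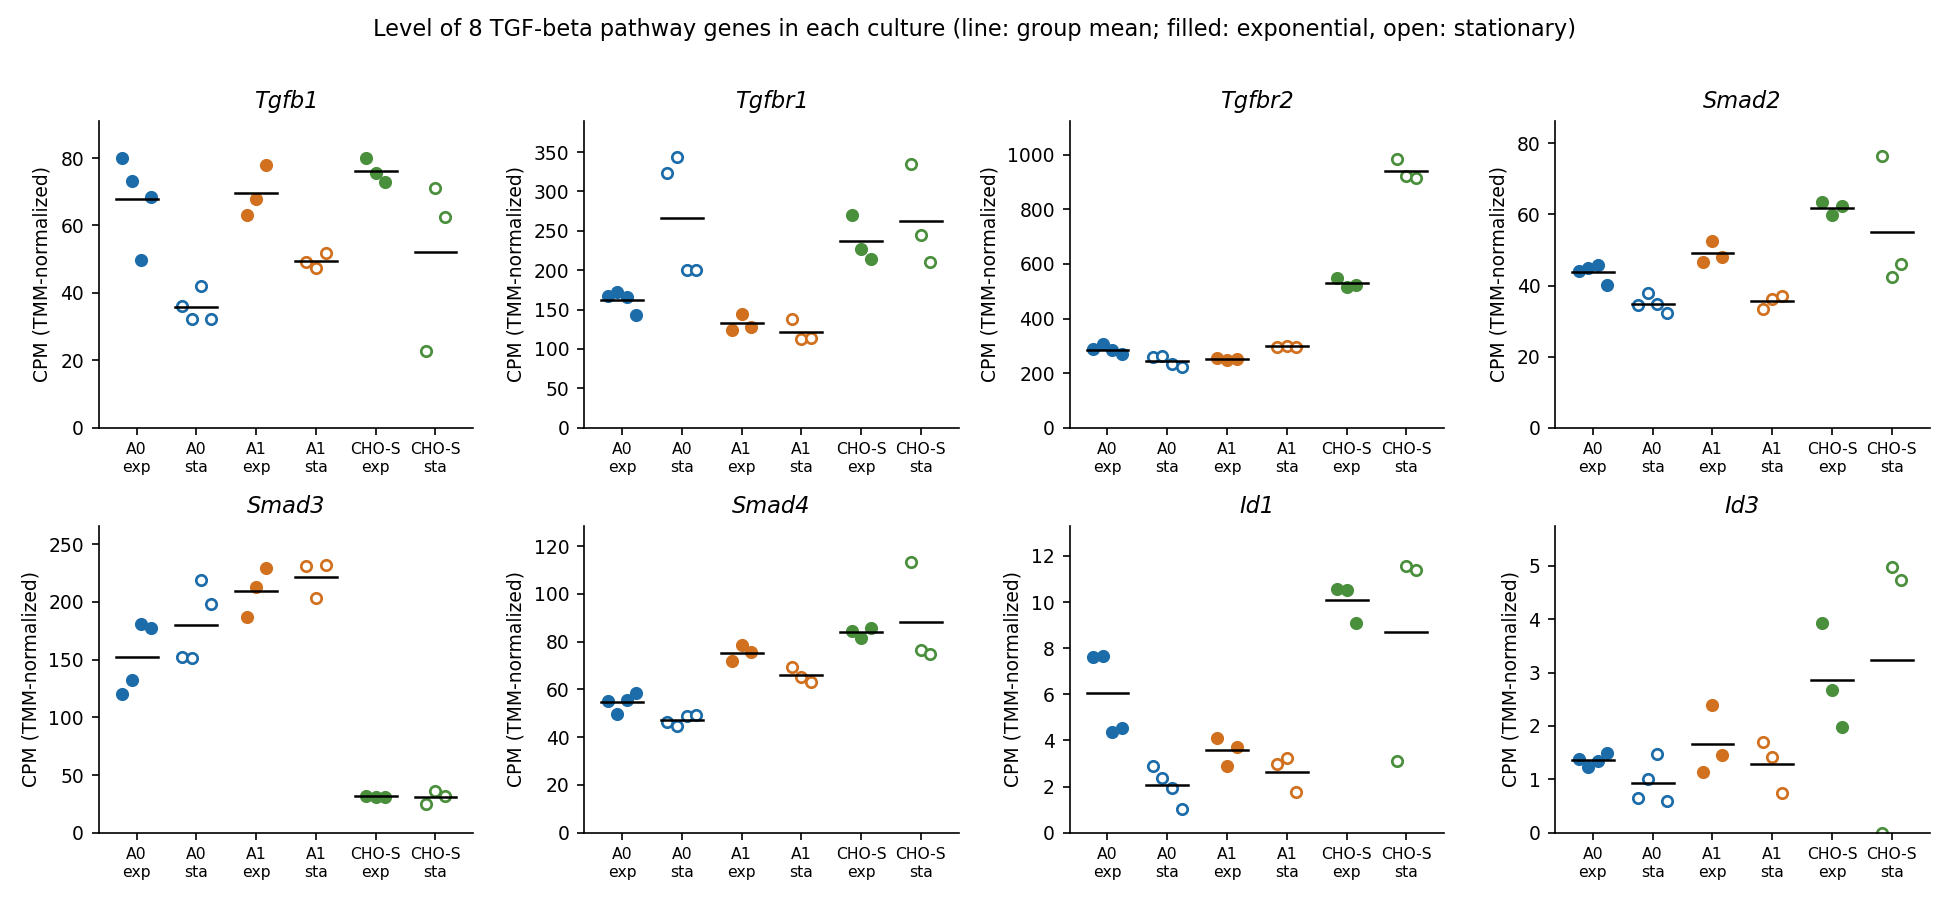
Normalized level (CPM) of 8 of the genes in each culture, by line and phase. Each point is 1 culture, filled in exponential and open in stationary phase, and the bar is the group mean. Smad3 lay at 120.3 CPM or higher in every A0 and A1 culture and at 36.1 CPM or lower in every CHO-S culture, while Tgfbr2 was highest in stationary CHO-S.

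The widest differences lay between the lines. Smad3 in the A0 and A1 clones was 4.85-fold to 6.80-fold above CHO-S, whereas Tgfbr2, Smad2, Id1 and, in 3 of the 4 comparisons, Tgfbr1, Smad4, Id3 and Smad7 were lower in the clones, as was Tgfb1 in stationary A0. Between phases, A0 showed lower Tgfb1, Tgfbr2, Smad2 and Id1 and higher Tgfbr1 in stationary culture, A1 showed lower Smad2, and CHO-S showed higher Tgfbr2. Some of these calls were fragile. Tgfbr2 in A0 was lost in 13 of 18 alternative settings, Smad2 in A0 in 9 of 18 and Smad2 in A1 in 6 of 13. With A0 cultures 3 and 4 alone, only Id1 kept its A0 call. The phase response of Tgfbr2 differed between A0 and CHO-S and between A1 and CHO-S, and that of Id1 differed between A0 and CHO-S. A1 held more Smad4 than A0 in both phases.

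Tested with edgeR's quasi-likelihood method and adjusted over all genes by Benjamini-Hochberg, 5 of the 10 genes passed the threshold of 0.05 in the A0 phase comparison, 1 higher and 4 lower in stationary phase. In the same comparison 35.2% of all tested genes passed, 17.2% higher and 18% lower. In A1, 1 of the 10 passed, lower in stationary phase, against 11.6% of all genes (5.83% higher and 5.74% lower). In CHO-S, 1 passed, higher in stationary phase, against 19.2% of all genes (9.49% higher and 9.74% lower). The culture values of the phases stood fully apart for 6 of the 10 genes in A0 (33.9% of all genes), 4 in A1 (37.4%) and 2 in CHO-S (29.6%). In RNA from a whole culture, fewer cells that express a gene and less of its RNA per cell cannot be told apart. The 8 genes other than Tgfb2 and Smad7, which were near the limit of detection, had a median log2 change of -0.28 in A0, -0.30 in A1 and 0.06 in CHO-S, and genes of at least 5 CPM had medians of -0.07, -0.06 and -0.04. The comparisons between lines share groups with each other, so their counts are not independent. Counts of the 10 genes are not matched for level with the shares of all genes, here and below. Of the 21358 genes tested, 10588 reached 5 CPM on average.

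Genes of growth and stress were read beside the phase responses. Mki67, a gene of dividing cells, went from 1323 ± 279 to 476 ± 171 CPM in A0, from 1288 ± 78.0 to 942 ± 64.4 CPM in A1 and from 792 ± 34.6 to 531 ± 199 CPM in CHO-S. It passed in A0 (adjusted p = 1.89e-06) but not in A1 (adjusted p = 0.232) or CHO-S (adjusted p = 0.0758). Other genes of dividing cells differed from it. Ccnb1, Mcm2 and Pcna passed as lower in every line, Top2a passed in A0 alone, and Cdk1 passed in CHO-S alone (log2 -0.60, adjusted p = 0.00137 by edgeR). Ddit3, a stress-induced transcription factor gene, rose from 23.99 ± 3.2 to 323 ± 62.4 CPM in A0, from 41.9 ± 8.31 to 209 ± 12.9 CPM in A1 and from 24.9 ± 1.37 to 144 ± 67.0 CPM in CHO-S. Of 10 such genes of growth and stress, 9 passed the test in A0 (4 higher and 5 lower), 6 in A1 (3 higher and 3 lower) and 7 in CHO-S (3 higher and 4 lower). The part of these genes in the phase responses below was not tested.

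Of the 2 ligand genes, Tgfb1 was the one measured above the floor of 3 counts. Its level in exponential A0 was 80.0, 73.1, 49.9 and 68.3 CPM in cultures 1 to 4, and in stationary A0 it was 36.0, 32.4, 42.2 and 32.4 CPM. Every stationary A0 culture lay below every exponential one. Tgfb1 fell by 0.92 on the log2 scale (SE 0.17, 95% interval -1.27 to -0.58, adjusted p = 7.17e-05). With cultures 1 and 2 alone the change was -1.13 (adjusted p = 0.000434), and with cultures 3 and 4 alone it was -0.67 and no longer passed (adjusted p = 0.0508).

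In exponential A1, Tgfb1 stood at 63.2, 67.9 and 78.1 CPM, and in stationary A1 at 49.2, 47.4 and 51.8 CPM. The A1 phases did not overlap, and the log2 change of -0.50 (SE 0.19) did not pass (adjusted p = 0.0991). A fit of the 2 A1 groups alone gave -0.48 with an adjusted p of 7.76e-06. CHO-S held 79.9, 75.6 and 72.8 CPM in exponential and 22.7, 71.2 and 62.6 CPM in stationary phase, where the 22.7 CPM belonged to the library with the fewest reads and rested on 22 counts. The CHO-S phases did not overlap, and the change of -0.38 (SE 0.20) did not pass (adjusted p = 0.197).

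The A1 response of Tgfb1 minus its A0 response was 0.43 and did not pass (95% interval -0.09 to 0.95, adjusted p = 0.41). The A0 response minus the CHO-S response was -0.54 (adjusted p = 0.177), and -0.74 without CHO-S stationary culture 1, which then passed (adjusted p = 0.00324). In stationary phase A0 was 0.71 lower than CHO-S on the log2 scale (SE 0.19, adjusted p = 0.0028). That call was lost without CHO-S stationary culture 2 (-0.48, adjusted p = 0.0799) and in a fit of those groups alone (-0.66, adjusted p = 0.0804). The value for stationary A1 against CHO-S was -0.24 (adjusted p = 0.384), and -0.45 without CHO-S stationary culture 1, which passed (adjusted p = 0.0124). In exponential phase the group means of Tgfb1 ran from 67.8 to 76.1 CPM and the cultures of the lines overlapped. The order of the groups ran from exponential CHO-S through exponential A1, exponential A0, stationary CHO-S and stationary A1 to stationary A0, and only the last step, from 49.5 ± 2.2 to 35.7 ± 4.63 CPM, separated neighbours without overlap.

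Tgfb2, the other ligand gene among the 10, had 3 counts or fewer in each culture. A0 cultures held 2 or 3 counts in exponential phase and 1 or none in stationary phase, A1 cultures held none to 2, and CHO-S cultures held none or 1. No fold is given, since every group lay at or under a floor of 3 counts per culture. Tgfb3, which belongs to the wider list of ligands, was at 8.36 ± 1.78 CPM in exponential A0, 10.6 ± 0.48 CPM in exponential A1 and 21.4 ± 1.79 CPM in exponential CHO-S.

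Tgfbr2, the ligand-binding type II receptor, was higher in CHO-S than in either clone. Its level was 549.7, 517 and 522 CPM in exponential CHO-S and 985, 923 and 914 CPM in stationary CHO-S, with no overlap between phases. It rose by 0.83 on the log2 scale (SE 0.10, 95% interval 0.62 to 1.04, adjusted p = 2.38e-06), and the call held in all 13 alternative settings.

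In A0, Tgfbr2 was at 287, 306, 284 and 269 CPM in exponential phase and at 259, 263, 233 and 224 CPM in stationary phase. The phases did not overlap, but the highest stationary culture and the lowest exponential one differed by little. The log2 change of -0.23 (SE 0.09) passed narrowly (adjusted p = 0.0477) and was lost in 13 of 18 alternatives, among them the fit with the replicate block (-0.23, adjusted p = 0.0768). The 2 libraries of exponential A0 culture 1 gave 341 CPM and, for the library titled RLT, 242 CPM, and those of culture 2 gave 331 and 273 CPM. The pairs in cultures 3 and 4 were closer, at 286 and 275 CPM and at 278 and 260 CPM. With the first libraries only, the A0 change was -0.34 (adjusted p = 0.00453).

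In A1, Tgfbr2 lay at 255, 248 and 251 CPM in exponential and at 297, 300.3 and 296 CPM in stationary phase. The stationary cultures were all higher, the log2 change was 0.24 (SE 0.10), and it did not pass (adjusted p = 0.138), though it did in a fit of the 2 A1 groups alone (0.26, adjusted p = 0.000225). The difference of the A1 and A0 responses was 0.47 (95% interval 0.19 to 0.75, adjusted p = 0.0443). It was lost in 16 of 24 alternatives, with an adjusted p of 0.0631 with the replicate block.

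Against CHO-S the phase responses of Tgfbr2 differed by more. The A0 response minus the CHO-S response was -1.05 (SE 0.14, 95% interval -1.33 to -0.78, adjusted p = 4.56e-06), called in all 24 alternatives. The A1 response minus the CHO-S response was -0.58 (SE 0.14, adjusted p = 0.0163), lost without A1 stationary culture 2 (adjusted p = 0.0538) and without CHO-S exponential culture 2 (adjusted p = 0.0519). Tgfbr2 was lower in A0 than in CHO-S by 0.89 in exponential and by 1.94 in stationary phase on the log2 scale (adjusted p = 1.93e-08 and 8.64e-15). For A1 these differences were -1.07 and -1.66 (adjusted p = 4.5e-09 and 1.77e-12). A1 and A0 differed in stationary phase by 0.28 (adjusted p = 0.0313), a call that 9 of 17 alternatives lost. From the top, the order was stationary CHO-S, exponential CHO-S, stationary A1, exponential A0, exponential A1 and stationary A0, and the cultures of stationary A1 overlapped exponential A0 and those of exponential A1 overlapped stationary A0.

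Tgfbr1, the kinase that phosphorylates Smad2 and Smad3, behaved differently. In exponential A0 it was at 167, 173, 167 and 143 CPM, and in stationary A0 at 324, 343, 200.4 and 199.9 CPM. All 4 stationary cultures were higher than all 4 exponential ones, with cultures 1 and 2 far above cultures 3 and 4. The log2 change was 0.72 (SE 0.16, 95% interval 0.39 to 1.04, adjusted p = 0.000777). Within cultures 1 and 2 it was 1.00 (adjusted p = 0.000286), and within cultures 3 and 4 it was 0.37 (adjusted p = 0.155).

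In A1 Tgfbr1 was at 124, 145 and 128 CPM in exponential and 138, 113 and 114 CPM in stationary phase (log2 change -0.12, 95% interval -0.50 to 0.26, adjusted p = 0.767). In CHO-S the levels were 269.6, 226 and 214 CPM in exponential and 334, 245 and 209.9 CPM in stationary phase, and the phases overlapped (log2 change 0.13, adjusted p = 0.745). The A1 response minus the A0 response was -0.84 (SE 0.24, adjusted p = 0.0462). That call was lost in 14 of 24 alternatives, and with A0 cultures 3 and 4 alone the difference was -0.49 (adjusted p = 0.367). The A0 response minus the CHO-S response was 0.59 (adjusted p = 0.113), and it passed with the replicate block (0.55, adjusted p = 0.0461) and without CHO-S stationary culture 1 (0.78, adjusted p = 0.00952).

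Stationary A1 held less Tgfbr1 than stationary A0, by 1.13 on the log2 scale (SE 0.18, adjusted p = 2.76e-05), in all 17 alternatives. A1 was also lower than CHO-S in both phases (-0.84 and -1.09, adjusted p = 0.000674 and 3.81e-05). A0 was lower than CHO-S in exponential phase (-0.54, adjusted p = 0.0107) but not when CHO-S exponential culture 1 was left out (-0.44, adjusted p = 0.0782), and the groups overlapped in stationary phase (0.04, 95% interval -0.32 to 0.40). In the order of the 6 groups, stationary A0 and both CHO-S groups came first and overlapped one another, and exponential A0, exponential A1 and stationary A1 followed, each overlapping the next.

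Smad3, the receptor-regulated Smad that binds DNA directly, separated the lines most widely of the 8 genes above the floor. Exponential CHO-S held 31.7, 31.2 and 31.4 CPM and stationary CHO-S 24.8, 36.1 and 32.1 CPM. A1 held 187, 213 and 229 CPM in exponential and 231, 203 and 232 CPM in stationary phase. A0 held 120.3, 132, 181 and 177 CPM in exponential and 152, 152, 219 and 198 CPM in stationary phase. No A0 or A1 culture came near the CHO-S range, and within A0, cultures 3 and 4 were higher than cultures 1 and 2 in each phase.

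On the log2 scale the difference from CHO-S was 2.28 (SE 0.16) for exponential A0, 2.46 (SE 0.17) for stationary A0, 2.74 (SE 0.17) for exponential A1 and 2.76 (SE 0.18) for stationary A1. The adjusted p-values ranged from 1.13e-12 to 9.95e-12, and each call held in every alternative. Between A0 and CHO-S, 8 of the 10 genes passed in exponential phase, 1 higher and 7 lower, and 42.9% of all genes passed (23.7% higher and 19.2% lower). In stationary phase the count was again 8, 1 higher and 7 lower, against 44.6% of all genes (23.4% higher and 21.2% lower). For A1 against CHO-S, 6 genes passed in exponential phase, 1 higher and 5 lower (35.3% of all genes, 19.1% higher and 16.2% lower). In stationary phase 7 passed, 1 higher and 6 lower (38.8%, 20.7% higher and 18.2% lower), and Smad3 was the only one called higher in these 4 comparisons. Cultures of the clone and of CHO-S did not overlap for 9 genes in exponential and 5 in stationary A0 (50.2% and 40.2% of all genes) and for 7 genes in exponential and 6 in stationary A1 (53.6% and 41.7%). Tgfb2, at 3 counts or fewer in each culture, was among the 9 and the 6. Smad7, at 3 counts or fewer in each A0 and A1 culture, was among the 9 and the 7.

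Smad3 did not pass in any phase comparison. Its log2 change was 0.24 in A0 (95% interval -0.04 to 0.52), 0.08 in A1 (-0.24 to 0.40) and 0.05 in CHO-S (-0.31 to 0.42). Exponential A1 was higher than exponential A0 by 0.46 (SE 0.15, adjusted p = 0.0252), with no overlap between cultures. Against A0 cultures 3 and 4 alone the difference was 0.23 (adjusted p = 0.232), and the call was also lost without A0 exponential culture 1 or 2 or A1 exponential culture 2 or 3, at adjusted p-values from 0.0814 to 0.131. In stationary phase the difference was 0.30 (adjusted p = 0.15), and the groups overlapped. It was 0.51 against A0 cultures 1 and 2 alone, which passed (adjusted p = 0.00368), and 0.09 against cultures 3 and 4 alone (adjusted p = 0.679).

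Smad2, the other receptor-regulated Smad, went the opposite way between lines. It was at 44.0, 44.8, 45.9 and 40.3 CPM in exponential A0 and at 34.4, 37.8, 34.8 and 32.4 CPM in stationary A0. In A1 it was at 46.7, 52.7 and 48.1 CPM and then at 33.3, 36.3 and 37.1 CPM. The phases did not overlap in either line, and Smad2 fell by 0.33 in A0 (SE 0.11, adjusted p = 0.0247) and by 0.46 in A1 (SE 0.13, adjusted p = 0.0232) on the log2 scale. Each call was lost in some alternatives, 9 of 18 for A0 and 6 of 13 for A1, and among these were 5 of the 6 fits that left out 1 A1 culture (adjusted p from 0.0579 to 0.139).

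CHO-S held 63.6, 59.9 and 62.4 CPM of Smad2 in exponential and 76.4, 42.4 and 46.1 CPM in stationary phase. The 76.4 CPM was CHO-S stationary culture 1. With it the change was -0.31 and did not pass (adjusted p = 0.139), and without it the change was -0.48 and passed (adjusted p = 0.000593). Smad2 was lower in A0 than in CHO-S by 0.50 in exponential and 0.52 in stationary phase (adjusted p = 0.00117 and 0.00208, log2 scale -0.50 and -0.52). A1 differed from CHO-S by -0.33 and -0.49 (adjusted p = 0.0474 and 0.00751), and the first of these was lost in 11 of 13 alternatives, among them that without A1 exponential culture 1 (-0.30, adjusted p = 0.148). A1 and A0 did not pass in either phase.

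**Figure D2:**
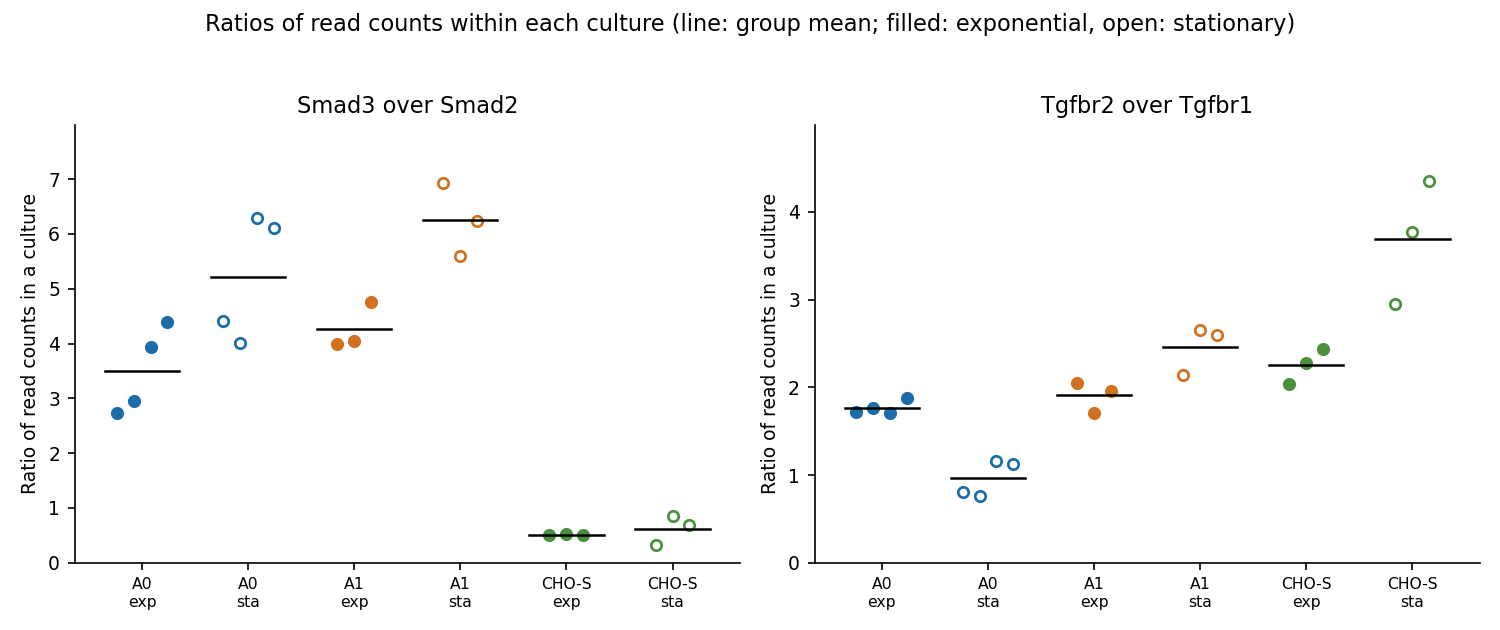
Ratio of Smad3 to Smad2 counts (left) and of Tgfbr2 to Tgfbr1 counts (right) within each culture, by line and phase. Points are cultures, filled in exponential and open in stationary phase, and bars are group means. The Smad ratio was below 1 in all CHO-S cultures and above 2 in all A0 and A1 cultures, and the receptor ratio was lowest in stationary A0.

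The ratio of Smad3 to Smad2 counts within a culture does not depend on scaling between libraries, although it is not corrected for transcript length and so is comparable only from culture to culture. It was chosen after the values were seen and is a description. The ratio was 3.50 ± 0.79 in exponential A0, 5.21 ± 1.16 in stationary A0, 4.27 ± 0.43 in exponential A1 and 6.26 ± 0.67 in stationary A1. In CHO-S it was 0.507 ± 0.011 and 0.625 ± 0.272. The lowest A0 or A1 culture had 2.73 and the highest CHO-S culture 0.853. The ratio of Tgfbr2 to Tgfbr1 counts was 1.77 ± 0.08 in exponential and 0.962 ± 0.208 in stationary A0. It was 1.91 ± 0.18 and 2.46 ± 0.28 in A1, and 2.25 ± 0.20 and 3.69 ± 0.71 in CHO-S.

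Smad4, the partner of every receptor-regulated Smad, was the only gene of the set that passed between A1 and A0 in each phase. Exponential A0 held 55.2, 49.8, 55.6 and 58.7 CPM and exponential A1 71.9, 78.6 and 75.8 CPM. Stationary A0 held 46.5, 44.5, 48.9 and 49.3 CPM and stationary A1 69.3, 65.3 and 63.2 CPM. Every A1 culture was higher than every A0 culture of the same phase. The log2 difference was 0.46 in exponential (SE 0.11, 95% interval 0.24 to 0.68, adjusted p = 0.00319) and 0.48 in stationary phase (SE 0.11, 95% interval 0.25 to 0.71, adjusted p = 0.00217). All 17 alternatives kept each call.

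Of the 10 genes, 3 passed between exponential A1 and A0, with Smad3 and Smad4 higher and Id1 lower, against 20.2% of all genes (9.45% higher and 10.8% lower). In stationary phase 3 passed as well, with Tgfbr2 and Smad4 higher and Tgfbr1 lower, against 24.1% of all genes (11.9% higher and 12.2% lower). A1 and A0 cultures did not overlap for 6 genes in exponential and 4 in stationary phase (32.2% and 36.1% of all genes). Smad7, at 3 counts or fewer in each of these cultures, was among the 6. The A1 and A0 levels of Smad4 both lay below CHO-S, where cultures held 84.4, 81.7 and 85.6 CPM in exponential and 114, 76.5 and 74.8 CPM in stationary phase. A0 was lower by 0.61 and 0.83 on the log2 scale (-0.61 and -0.83, adjusted p = 4.03e-05 and 1.4e-06). A1 was at -0.15 in exponential phase (adjusted p = 0.348) and at -0.35 in stationary phase (adjusted p = 0.0254). The last call was lost without CHO-S stationary culture 1 (-0.21, adjusted p = 0.0652), without A1 stationary culture 2 or 3 (adjusted p = 0.0752 and 0.0863) and with scaling by total count (-0.21, adjusted p = 0.198). Smad4 did not pass in the phase comparisons, at -0.21 in A0 (adjusted p = 0.115), -0.20 in A1 (adjusted p = 0.343) and 0.00 in CHO-S (95% interval -0.25 to 0.26). RefSeq annotates another assembly, CriGri-PICRH-1.0, and there a protein-coding gene (LOC113833670) overlaps Smad4 and a non-coding one (LOC118238691) overlaps Smad3. The strand setting of the counting is not given in the sources used here, so reads of such neighbours cannot be told apart from these genes. Neither neighbour has a row in the count table.

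Smad7, the inhibitory Smad, was close to the limit of detection. A0 cultures held 1, 3, 1 and 2 counts in exponential and 1, 3, 1 and 0 counts in stationary phase. A1 cultures held 2 counts each in exponential and 3, 3 and 2 counts in stationary phase. CHO-S cultures held 12, 6 and 11 counts in exponential and 0, 8 and 7 counts in stationary phase. The culture with 0 counts was the one with the fewest reads, where a count of 0 allows up to 3 counts.

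Over the groups, exponential A0 had 7 Smad7 counts and exponential CHO-S 29, a depth-corrected ratio of 0.0955 (95% counting interval 0.0353 to 0.223, exact binomial, counting error only). For exponential A1, with 6 counts, the ratio to CHO-S was 0.219 (0.0742 to 0.536). In stationary phase the ratios were 0.15 (0.0427 to 0.435) for A0 and 0.369 (0.136 to 0.928) for A1. By the quasi-likelihood test Smad7 was lower in A0 than in CHO-S in exponential (adjusted p = 1.18e-05) and stationary phase (adjusted p = 0.00167) and lower in A1 in exponential phase (adjusted p = 0.00454), while stationary A1 did not pass (adjusted p = 0.08). No fold is given between A0 and A1 or between their phases, since all those groups were at or under 3 counts per culture.

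Id1, an inhibitor of basic helix-loop-helix factors, had the steepest phase response of the 10 genes in A0. Exponential A0 held 7.62, 7.67, 4.35 and 4.54 CPM (198, 192, 106 and 107 counts). Stationary A0 held 2.89, 2.35, 1.95 and 1.05 CPM (31, 28, 25 and 14 counts). Each stationary culture was lower than each exponential one, and cultures 1 and 2 were again the higher ones in exponential phase. Id1 fell by 1.58 on the log2 scale (SE 0.27, 95% interval -2.12 to -1.03, adjusted p = 3.33e-05). The change was -1.52 within cultures 1 and 2 (adjusted p = 0.000193) and -1.57 within cultures 3 and 4 (adjusted p = 0.00188), and the call held in all 18 alternatives.

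A1 held 4.09, 2.90 and 3.74 CPM of Id1 in exponential and 2.99, 3.22 and 1.75 CPM in stationary phase. The phases overlapped, and the log2 change was -0.45 (95% interval -1.14 to 0.24, adjusted p = 0.472). CHO-S held 10.6, 10.5 and 9.11 CPM in exponential and 3.10, 11.6 and 11.4 CPM in stationary phase, and the 3.10 CPM came from 3 counts in the smallest library. The CHO-S change was 0.07 (95% interval -0.50 to 0.63, adjusted p = 1).

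The A0 response of Id1 minus that of CHO-S was -1.64 (SE 0.38, 95% interval -2.43 to -0.85, adjusted p = 0.00401), in all 24 alternatives. The A1 response minus the A0 response was 1.13 and did not pass (adjusted p = 0.156), but it did with the replicate block (1.12, adjusted p = 0.0499). Of the 10 genes, 2 passed in the comparison of the A1 and A0 responses, 1 higher and 1 lower (4.56% of all genes, 2.77% higher and 1.78% lower). In that of A0 and CHO-S 2 passed, both lower (14.7%, 6.44% higher and 8.25% lower), and in that of A1 and CHO-S 1 passed, lower (5.49%, 2.48% higher and 3.01% lower). Without CHO-S stationary culture 1, 5 genes passed for A0 and CHO-S, with Tgfb1, Tgfbr1 and Id3 added. Without A1 exponential culture 1, the calls for A1 and A0 were lost (adjusted p = 0.0694 for Tgfbr1 and 0.0859 for Tgfbr2).

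Id1 was lower in A0 than in CHO-S, at -0.73 in exponential (adjusted p = 0.0123) and -2.38 in stationary phase (adjusted p = 2.55e-07). The first difference shrank to -0.38 when A0 was limited to cultures 1 and 2 (adjusted p = 0.0931), and it was also lost without A0 exponential culture 3 or CHO-S exponential culture 1 (adjusted p = 0.0515 and 0.0509). A1 differed from CHO-S by -1.49 and -2.004 (adjusted p = 0.000124 and 1.32e-05). Exponential A1 was lower than exponential A0 by 0.76 on the log2 scale (-0.76, adjusted p = 0.0451). That call was lost in 9 of 17 alternatives, among them that without A1 exponential culture 1 (-0.86, adjusted p = 0.0735), and against A0 cultures 3 and 4 alone the difference was -0.31 (adjusted p = 0.449).

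Id3, a close relative of Id1, was lower in count throughout. A0 held 1.39, 1.24, 1.35 and 1.49 CPM in exponential and 0.652, 1.01, 1.48 and 0.600 CPM in stationary phase. A1 held 1.15, 2.39 and 1.45 CPM and then 1.71, 1.42 and 0.749 CPM. CHO-S held 3.93, 2.67 and 1.97 CPM and then 0, 4.98 and 4.74 CPM, where the 0 is again the smallest library and allows up to 3 counts. The phases overlapped in each line.

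The log2 phase change of Id3 was -0.53 in A0 (95% interval -1.26 to 0.19), -0.41 in A1 (-1.28 to 0.46) and 0.62 in CHO-S (-0.09 to 1.34), and none passed. The difference of the A0 and CHO-S responses was -1.16 (adjusted p = 0.125), and -1.29 without CHO-S stationary culture 1 (adjusted p = 0.0345). A0 was lower than CHO-S by 1.07 in exponential and by 2.23 in stationary phase (-1.07 and -2.23, adjusted p = 0.00674 and 1.91e-05). The first was lost without CHO-S exponential culture 1 (-0.76, adjusted p = 0.11). A1 differed from CHO-S by -0.79 (adjusted p = 0.09) and -1.83 (adjusted p = 0.000579).

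**Figure D3:**
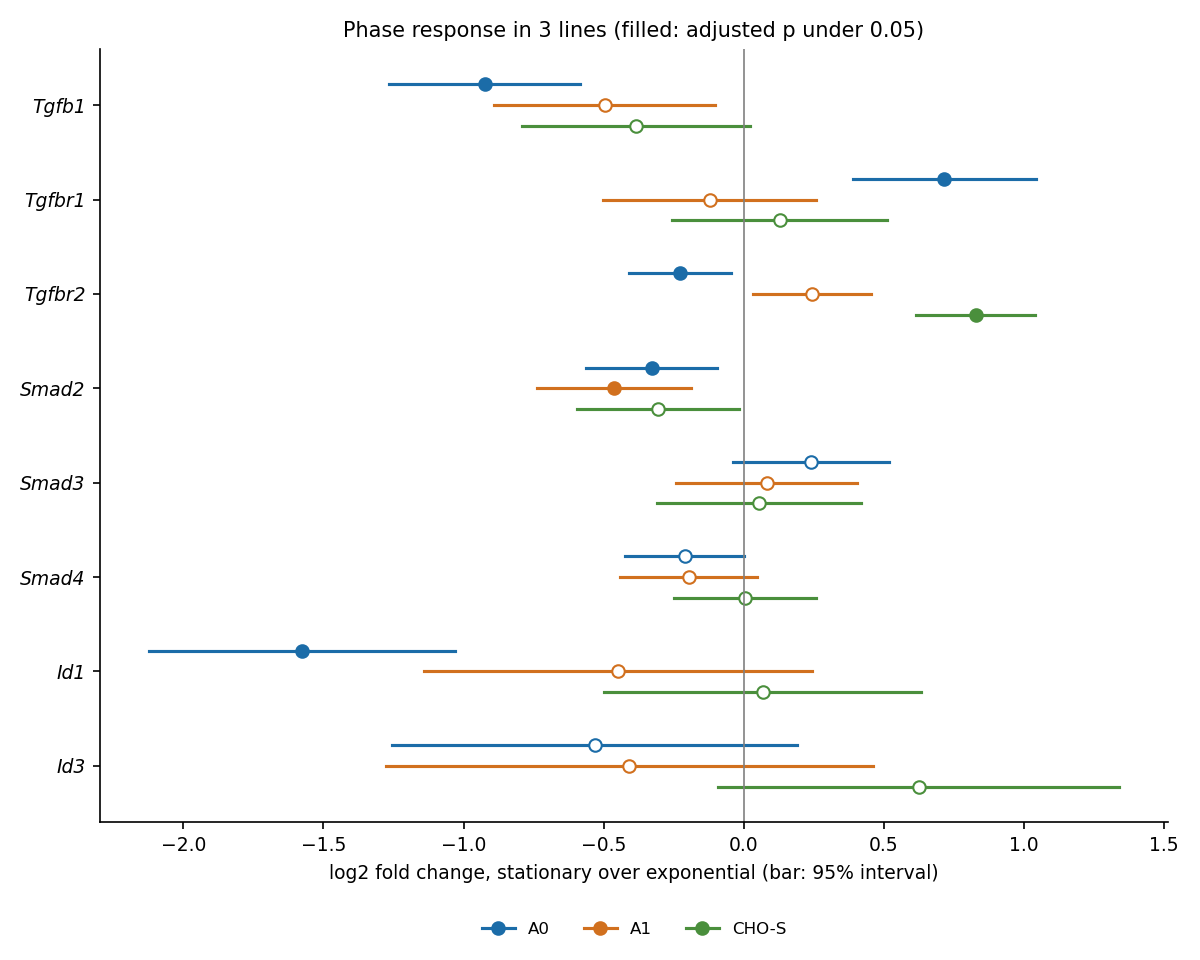
Log2 fold change of stationary over exponential phase for 8 genes in A0, A1 and CHO-S, with 95% intervals from the edgeR fit. Filled points passed an adjusted p of 0.05. Id1 in A0 (-1.58) and Tgfbr2 in CHO-S (0.83) lie farthest from 0 among the called points in their directions.

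**Figure D4:**
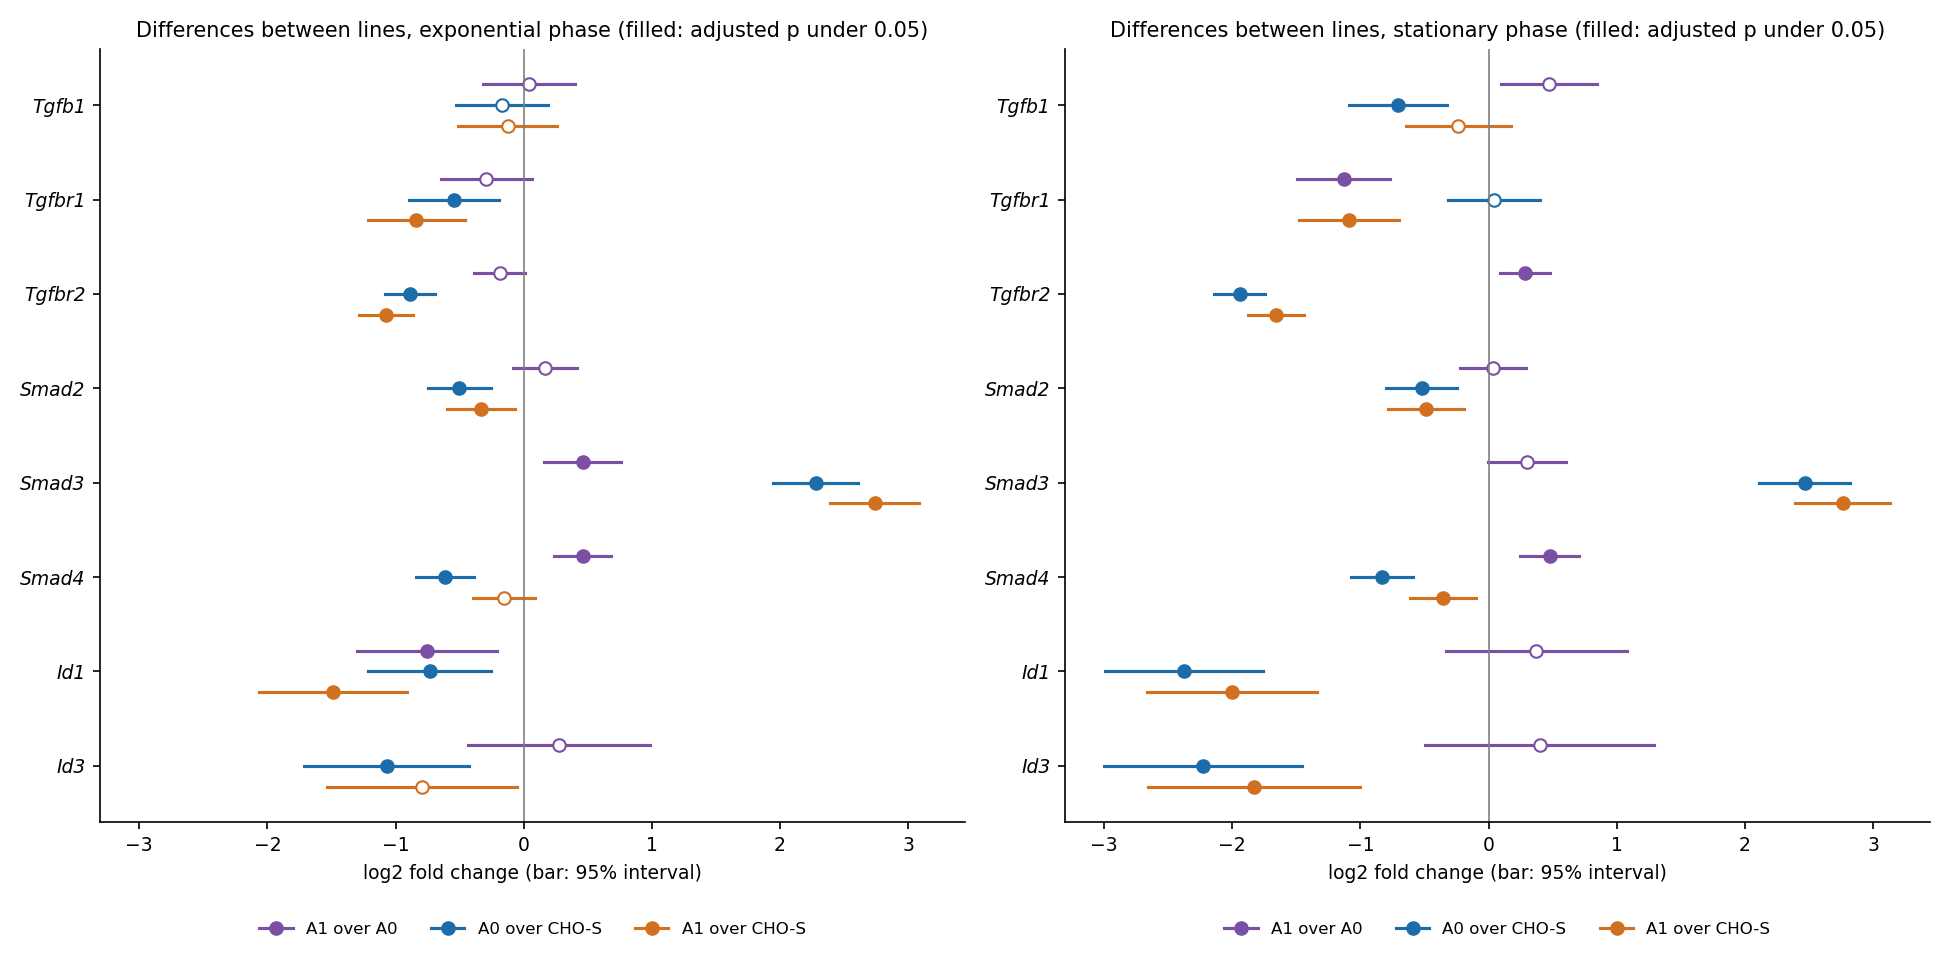
Log2 differences between lines in exponential (left) and stationary phase (right) for the same 8 genes, with 95% intervals. Filled points passed an adjusted p of 0.05. Smad3 is the only gene with both differences from CHO-S above 0, from 2.28 to 2.76, and Smad4 is higher in A1 than in A0 in both panels.

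The wider pathway was read from 6 lists of 98 gene symbols, of which 90 were in the table and 77 were tested. In A0, 19 of the 77 rose in stationary phase and 15 fell, which is 44.2% of them against 35.2% of all genes. In A1, 10 rose and 4 fell (18.2% against 11.6%). In CHO-S, 17 rose and 7 fell (31.2% against 19.2%). Calls over all genes moved with the setting as well. Without A1 exponential culture 1 the A1 list counts were 5 and 2, while calls over all genes went from 2470 to 1585. In a fit of the A1 groups alone the list counts were 19 and 11, with 6196 calls over all genes. For CHO-S a fit of its 2 groups alone gave 10 and 5, while calls over all genes went from 4107 to 2308. Among the 58 list genes of at least 5 CPM the median log2 change was -0.02 in A0, 0.09 in A1 and 0.05 in CHO-S, beside -0.07, -0.06 and -0.04 for all genes of that level. The lists were drawn up with earlier results of these data known, so the counts are a description. At least 5 CPM was reached by 58 of the 77 list genes and by 10588 of the 21358 genes tested. The percentages of list genes and of all genes are therefore not matched for level, here and below, and matched shares were not computed.

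Of 19 ligands and genes of ligand latency, 4 rose and 6 fell in A0, which is 52.6% against 35.2% of all genes. In A1, 1 rose and 2 fell (15.8% against 11.6%), and in CHO-S 6 rose and 2 fell (42.1% against 19.2%). Ltbp1, which tethers latent TGF-beta to the matrix, went from 202 ± 18.7 to 80.9 ± 7.02 CPM in A0 (log2 -1.32, adjusted p = 2.77e-10) and from 98.7 ± 8.75 to 56.5 ± 6.54 CPM in A1 (-0.81, adjusted p = 7.61e-05), while in CHO-S it went from 403 ± 8.36 to 569 ± 40.0 CPM (0.50, adjusted p = 0.00357). Thbs1, which can activate latent TGF-beta, had the opposite signs. It rose by 0.70 in A0 (adjusted p = 9.59e-05) and by 0.91 in A1 (adjusted p = 0.000172), and its change in CHO-S was -1.04 (adjusted p = 2.72e-05). Thbs1 reached 802 ± 124 CPM in stationary A1. Inhbb, an activin subunit gene, fell in A0 (-1.03, adjusted p = 1.52e-07) and rose in CHO-S (0.68, adjusted p = 0.00118), and Ltbp2 fell in both of these lines (-1.03 and -0.66, adjusted p = 0.000225 and 0.0297).

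Among receptors and coreceptors, 3 of 12 rose in each line and none fell (25%, against 35.2%, 11.6% and 19.2% of all genes in A0, A1 and CHO-S). Tgfbr3, the coreceptor betaglycan, rose in all 3, by 0.63 in A0, 0.55 in A1 and 1.17 in CHO-S (adjusted p = 7.2e-05, 0.00597 and 1.02e-06). Amhr2, the receptor of anti-Mullerian hormone, rose from 0.899 ± 0.206 to 5.38 ± 1.66 CPM in A0 and from 0.883 ± 0.193 to 2.80 ± 0.79 CPM in A1. Rgmb, a coreceptor for bone morphogenetic proteins, rose in A1 (0.37, adjusted p = 0.0377) and CHO-S (0.55, adjusted p = 0.000769). Eng, the highest of the list in CPM, passed in no phase comparison.

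Of 17 Smads and Smad regulators, 4 rose and 4 fell in A0 (47.1% against 35.2% of all genes). In A1, 1 rose and 1 fell (11.8% against 11.6%), and in CHO-S 1 rose and 3 fell (23.5% against 19.2%). Strap, whose protein binds the TGF-beta receptors, fell in all 3 lines by similar amounts (-0.48, -0.48 and -0.54, adjusted p = 0.00016, 0.00365 and 0.000676). Smad6, the other inhibitory Smad, fell in A0 from 2.33 ± 0.20 to 0.688 ± 0.282 CPM (-1.73, adjusted p = 7.49e-06) and rose in CHO-S from 0.388 ± 0.161 to 1.09 ± 0.38 CPM (1.40, adjusted p = 0.0297). The CHO-S rise of Smad6 rests on few counts. For comparison, Smad7 at 0.731 CPM in exponential CHO-S rested on 6 to 12 counts per culture. Bambi, a decoy receptor, fell in A0 and CHO-S (-0.71 and -0.76), and the corepressor Tgif1 rose in A0 and A1 (0.98 and 0.70). Of 6 secreted inhibitors tested, 3 passed in each line (50%, against 35.2%, 11.6% and 19.2% of all genes in A0, A1 and CHO-S). Bgn, a matrix proteoglycan that binds TGF-beta, rose in all 3 lines (0.37, 0.54 and 0.49, adjusted p = 0.0356, 0.0271 and 0.0305 by edgeR). Fstl3 rose in A0 and CHO-S (0.48 and 1.06, adjusted p = 0.0483 and 0.00368 by edgeR), and its A0 phases overlapped. Fst, at 4.26 CPM on average over the groups, rose in A1 (0.73, adjusted p = 0.0399 by edgeR). In CHO-S the change of Fst was -1.62 (SE 0.53, adjusted p = 0.0319 by edgeR), and the phases overlapped.

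Among 20 genes known as TGF-beta family targets, 5 rose and 2 fell in A0 (35% against 35.2% of all genes). In A1, 2 rose and 1 fell (15% against 11.6%), and in CHO-S 5 rose and 1 fell (30% against 19.2%). Fn1, the fibronectin gene, rose in all 3 lines, by 0.46 in A0, 1.43 in A1 and 0.52 in CHO-S (adjusted p = 0.00524, 5.4e-07 and 0.0119). Ctgf fell in CHO-S from 149 ± 19.5 to 20.7 ± 7.18 CPM (-2.72, adjusted p = 1.09e-08) and in A0 from 5.23 ± 0.78 to 2.84 ± 1.51 CPM (-0.85, adjusted p = 0.00742). Snai1 fell in A0 and rose in CHO-S (-0.89 and 1.00), and Zeb2 rose in A0 and A1 (0.85 and 0.70). The list holds genes that other pathways also regulate. Of the 3 partners of Id proteins, Tcf12 rose in A0 (0.58, adjusted p = 6.58e-05) and Tcf3 and Tcf4 fell there, where 35.2% of all genes passed. None of the partners passed in A1 or CHO-S, where 11.6% and 19.2% of all genes did.

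Between the lines, 49 of the 77 list genes passed for exponential A0 against CHO-S (63.6% against 42.9% of all genes), 16 higher and 33 lower. For stationary A0 the counts were 16 higher and 35 lower (66.2% against 44.6%). For A1 they were 19 and 32 in exponential (66.2% against 35.3%) and 20 and 32 in stationary phase (67.5% against 38.8%). Between A1 and A0, 14 were higher and 8 lower in exponential phase (28.6% against 20.2%), and 15 were higher and 10 lower in stationary phase (32.5% against 24.1%). These shares are not matched for level either, so the excess over all genes is not read as a result about the pathway.

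The genes whose group means were most like those of Id1, by the root mean square difference of centred log2 levels over the 6 groups and among 10587 genes of at least 5 CPM, were LOC100768782 (0.11), Fam134c (0.14) and Tpst2 (0.15). Tpst2, a tyrosine sulfotransferase gene, went from 58.5 ± 6.14 to 20.1 ± 1.47 CPM in A0, from 40.8 ± 0.80 to 22.6 ± 1.74 CPM in A1 and from 83.0 ± 1.91 to 72.0 ± 32.3 CPM in CHO-S. The pattern of Smad7 and of Tgfb2 rested on too few counts for such a comparison, although their nearest genes were LOC100766731, C1s and LOC103158866 for Smad7 and Arl6ip1, LOC103159983 and Snx16 for Tgfb2.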

How the data were processed

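RNA-seq libraries (24, poly(A)-selected and stranded) were deposited as read counts per gene, which the authors made by aligning reads with STAR 2.5.4b and counting them with HTSeq 0.7.2, per the submitters' processing notes and the study's methods, on the Chinese hamster build C_griseus_v1.0. The 5 summary lines that name no gene were left out of library sizes and tests. They held, as shares of a library, unaligned reads (2.31 to 11.5%), reads off annotated genes (11.9 to 32.8%) and reads with several alignments (12.7 to 14.8%). Reads of near-identical copies were therefore not counted.

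Counts of libraries of 1 exponential A0 culture were summed, giving 20 cultures. The filter kept the 21358 of 28037 genes that had 1 count or more in 2 or more cultures and varied among them. All 6 groups entered 1 quasi-likelihood fit in edgeR 4.0.16 (R 4.3.3) with TMM scaling, 2-sided tests, Benjamini-Hochberg adjustment over all genes and a threshold of 0.05. The fit included phase contrasts, line contrasts and differences of responses. The fit was tested on simulated data. Levels are TMM-scaled CPM computed from the deposited counts. Depth ranged from 1038026 to 14652646 reads on genes, and intervals cover counting error only where named so. One further check of the lines is not reported here. Figures were drawn with matplotlib 3.10.9.

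The 10 genes and the lists were chosen with earlier results of these data known. List genes named are those past the threshold in at least 2 of the 3 phase responses with the largest mean absolute change, at most 4 per list, plus the highest of each list in CPM. The 3 genes most alike were named for Id1, Smad7 and Tgfb2. Gdf15, Bmpr1b, Lefty1, Id4, Cdkn2b, Myc and the symbols Ccn1 and Ccn2 are not analysed here, while Ctgf and Cyr61, the older symbols of the last pair, are.

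Same-numbered cultures were checked for pairing by the correlation of their deviations from group means over genes of at least 5 CPM. In A0 all 4 pairs of phases exceeded the limit of 0.1 (0.19 to 0.424), so the fit with the replicate block is given where it changes a call. Of the A1 pairs (-0.125 to 0.154) only that of culture 3 exceeded the limit. No pair of CHO-S (-0.005 to 0.097) and no pair between lines (-0.174 to 0.076) did so. For A0 cultures 3 and 4 the check did not single out the same number. Their correlation was higher with a stationary A0 culture of another number (0.322 and 0.27) than with their own (0.266 and 0.19). Alternatives were DESeq2 1.42.0, DESeq2 size factors, other count filters, fits of only the groups compared, the first libraries only, A0 cultures 1 and 2 or 3 and 4 alone, replicate blocks, each culture left out in turn and, added after the data were seen, scaling by total count.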

Additional observations from a re-analysis of the deposited data

Results flagged for a closer look

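Tgfb2 in stationary A0 was flagged because the lowest of its 4 cultures stood apart from the others (gap over range 0.838), from cultures with 1, 1, 1 and 0 counts. Chance flags about 1 in 20 groups of continuous values, and 20 groups were tested. With counts of only 0 and 1 that rate does not apply, so the flag says nothing about this culture.

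Differences of phase response between lines passed the test for 5 results. The A1 response of Tgfbr1 minus its A0 response was -0.84. For Tgfbr2 the A1 minus A0 difference was 0.47, the A0 minus CHO-S difference -1.05 and the A1 minus CHO-S difference -0.58. For Id1 the A0 minus CHO-S difference was -1.64. The results for Tgfbr1 and Tgfbr2 between A1 and A0 were each near the threshold, and leaving out A1 exponential culture 1, which held 45.2 CPM of the CHO-S gene Col4a1, gave adjusted p = 0.0694 for Tgfbr1 and 0.0859 for Tgfbr2 by edgeR.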

How the results depend on the processing

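Of 101 single-gene results, 47 passed the threshold, and 28 of these passed under every alternative run for them. Over the 774 alternatives of the 47 results, 110 lost the call and none reversed it. Alternatives of the 54 results that did not pass crossed the threshold 30 times. The cause of these changes was not tested. The alternative that scales levels by transcript length was not run, since no lengths were at hand. Scaling by total count was added after the data were seen, and it moved the median gene by over 0.1 only for stationary A1 against CHO-S (0.14).

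The number of the 10 genes called in the A1 phase comparison (1) was 2 with DESeq2, 2 with filterByExpr and 4 in a fit of only the groups compared. In the A0 phase comparison (5) it was 3 with DESeq2 size factors, 3 with A0 cultures 1 and 2 alone and 1 with cultures 3 and 4 alone. Between exponential A1 and A0 (3) it was 1 with A0 cultures 3 and 4 alone. For the A1 minus A0 responses (2) it was 1 with DESeq2 size factors, without a count filter and with the first libraries only, and 0 with A0 cultures 3 and 4 alone. When 1 culture at a time was left out, the counts ranged from 3 to 5 for the A0 phase, 0 to 1 for A1, 1 to 2 for CHO-S, 1 to 3 and 2 to 3 for A1 against A0 in exponential and stationary phase, 5 to 8 and 7 to 8 for A0 against CHO-S, 5 to 6 and 6 to 7 for A1 against CHO-S, and 0 to 1, 2 to 5 and 0 to 1 for the differences A1 minus A0, A0 minus CHO-S and A1 minus CHO-S. The low of 5 came without CHO-S exponential culture 1, and the high of 5 for A0 minus CHO-S without CHO-S stationary culture 1.

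Over all genes, the calls for A1 minus A0 went from 973 to 1603 with DESeq2, 1873 with only the groups compared, 2060 with A0 cultures 1 and 2 alone and 424 with cultures 3 and 4 alone (501 to 1274 with 1 culture left out). For A1 minus CHO-S they went from 1172 to 1780 with DESeq2 (685 to 2311), for the A1 phase from 2470 to 6196 with only the groups compared (1428 to 1672), for the CHO-S phase from 4107 to 2308 with only the groups compared, and for the A0 phase from 7516 to 4992 with cultures 3 and 4 alone.

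With the replicate block (culture within line), Tgfbr2 lost its A0 phase call (-0.23, adjusted p = 0.0768 by edgeR) and its A1 minus A0 call (0.47, 0.0631), Id1 gained A1 minus A0 (1.12, 0.0499), Tgfbr1 gained A0 minus CHO-S (0.55, 0.0461), and the Smad7 CHO-S change reversed to 0.017. A replicate block of numbers shared across lines, which the pairing check gives no ground for, turned Smad2 in stationary A1 against A0 to -0.0021. It also let Smad3 pass in that comparison (0.38, adjusted p = 0.0371 by edgeR) and lost the calls of Tgfbr2 there (0.25, 0.0967) and of Smad2 in exponential A1 against CHO-S (-0.33, 0.0591).

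Values that changed sign were all of results that did not pass. Smad4 in A1 minus A0 was -0.0064 with DESeq2, -0.0051 with DESeq2 size factors, -0.0234 with the first libraries and -0.0012 with A0 cultures 1 and 2 alone. Smad3 in A1 minus CHO-S was -0.005 with DESeq2 size factors and -7e-04 with filterByExpr. Smad2 in A0 minus CHO-S was 0.0304 with the first libraries, 0.0793 with A0 cultures 1 and 2 alone and 0.0293 with total counts, which also gave -2e-04 for Smad4 in the CHO-S phase. With A0 cultures 1 and 2 alone, A1 against A0 was -0.1563 for exponential Tgfb1, -0.05 for stationary Smad2 and -0.0265 for stationary Id1, and exponential A0 against CHO-S was 0.0196 for Tgfb1. With cultures 3 and 4 alone, stationary A0 against CHO-S was -0.3704 for Tgfbr1.

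Leaving out 1 culture gave ranges that crossed 0 for Tgfb1 in exponential A1 against A0 (-0.1022 to 0.1299) and A1 minus CHO-S (-0.3166 to 0.1159), Tgfbr1 in the CHO-S phase (-0.0415 to 0.27) and stationary A0 against CHO-S (-0.1024 to 0.2316), Smad2 in stationary A1 against A0 (-0.0314 to 0.0749), A0 minus CHO-S (-0.1854 to 0.1685) and A1 minus CHO-S (-0.3197 to 0.0265), Smad3 in the CHO-S phase (-0.0654 to 0.1418) and A1 minus CHO-S (-0.0479 to 0.1466). The same held for Smad4 in the CHO-S phase (-0.134 to 0.1029) and A1 minus A0 (-0.0244 to 0.0584), Smad7 in the CHO-S phase (-0.4623 to 0.133), Id1 in the CHO-S phase (-0.0722 to 0.2058), and Id3 in exponential A1 against A0 (-0.0695 to 0.4774) and A1 minus A0 (-0.0796 to 0.4674).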
